A study of Mus musculus with 4 samples.

Results

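Lipid synthesis, storage and oxidation were followed through 57 genes, chosen by gene symbol alone from the 8016 autosomal genes that carry an exonic SNP in these allele counts. The symbols were those of acetyl-CoA carboxylases (Acac), desaturases (Scd, Fads) and elongases (Elovl), acyl-CoA synthetases (Acsl, Acsm, Acss) and thioesterases (Acot), acyltransferases (Agpat, Dgat) and lipins, lipases and patatin-like proteins (Lip, Lpl, Pnpla), abhydrolase proteins (Abhd), perilipins, fatty acid binding proteins and apolipoproteins (Fabp, Apo, Cd36), and the enzymes of fatty acid oxidation (Cpt1, Cpt2, Acaa, Acad, Acox). Counted reads were present for 56 of the 57, among 7872 genes in all. Both exonic positions of Acot12 lie in another gene too and were counted there. The genes Fasn, Lipe, Cd36, Fabp4 and the perilipins had no exonic SNP to count and are not analysed here.

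The RNA came from gonadal fat of F1 mice between C57BL/6J (B) and DBA/2J (D), fed chow, at an age of 8 weeks by the labels, whereas the methods give an older age. The 4 samples were single pools of RNA, a female and a male one of each reciprocal cross (BxD and DxB), each from 3 animals except for 2 in the pool labelled DxB female. No treatment, transgene or deletion was part of the design, and the B and D alleles of a pool came from the same cells. With 1 pool per cross and sex, p-values measure the spread between the 4 pools, and whole tissue gives no view of single cell types.

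The labels and the file names of 2 pools disagreed. The pool labelled DxB female has a file named as a BxD male, and the pool labelled BxD male has a file named as a DxB female. On the X chromosome B reads made up 96.6% for the pool labelled DxB female and 68.4% for that labelled BxD male, beside 67.4% for the BxD female pool and 39.0% for the DxB male pool. A male carries its mother's X only, so the shares of the 2 disputed pools went with the file names. The X reads of the DxB male pool came from both alleles, and the reason was not tested. All 8 allele counts of a gene equalled those of the study's own table for 99.9% of 1996 genes by file name and for 1.20% by label. The test of strain does not use these labels, and each test of sex or parent is given under both identities.

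A pool held 3344020 to 4241289 counted reads, and the D allele had 45.8 to 47.1% of them. The 57 genes took up 1018201 reads, of which lipoprotein lipase (Lpl) alone had 665481. At least 10 reads were counted for 51 of them, at least 100 for 42 and at least 1000 for 25. The adipocyte genes Lep and Cidec were read in every pool, with 4155 to 10804 and 14019 to 27097 reads. The brown adipocyte gene Ucp1 had 1700 reads in the pool labelled BxD male against 148, 1 and 4 in the others.

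White adipocytes store fatty acids as triglyceride. Lipoprotein lipase at the capillary wall releases fatty acids from circulating lipoproteins. Acetyl-CoA carboxylase, fatty acid synthase, desaturases and elongases make and modify new ones, synthetases couple them to coenzyme A, and acyltransferases, lipins and diacylglycerol acyltransferases build them into glycerolipid. Mitochondria and peroxisomes oxidise them through carnitine palmitoyltransferase, acyl-CoA dehydrogenases or oxidases, and thiolases. In an F1 animal both alleles meet the same diet, hormones and transcription factors, so the alleles are compared within the same cells.

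The SNPs that carried the results are shown as windows of 29 bases of the mm9 (NCBIM37) plus strand, with the B base in the middle as a capital. The change after each sequence gives the B base, its position counted from the 5′ end of the window, and the D base. The first 6 are the best-read SNP of each gene called in the strain test with at least 10 reads of either allele.
Lpin1, 3′ UTR, chr12:16544787-16544815, G15A: tggatgtctctgtcGtggaaatgtgtccc
Agpat9, synonymous, chr5:101322473-101322501, A15T: tttgcaaacagggtAaaatccgctatcgc
Abhd14b, 3′ UTR, chr9:106354776-106354804, C15T: tgatccatctctctCttcagccgctccac
Acaca, 3′ UTR, chr11:84215034-84215062, A15G: aaagcagccttcacAcgtgtcagtgagag
Acss3, synonymous, chr10:106490454-106490482, C15T: cctatccttgcacaCgccagcatggtata
Acaa1a, 5′ UTR, chr9:119250615-119250643, C15T: gtaggacccacctcCgcgatgcatcggct

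A further 7 were picked after their values were seen, because a call or a change of direction rested on them.
Agpat6, 3′ UTR, chr8:24284936-24284964, T15G: gacggtagaggctgTggcagcaacaactg
Acss2, nonsynonymous, chr2:155343864-155343892, T15G: cgcaagagcggcagTggaagccgggctcg
Fabp5, 5′ UTR, chr3:10012623-10012651, A15G: gtgctctccctcccAccatggccagtctt
Acaa1a, synonymous, chr9:119259077-119259105, G15A: gcttacggcgtggtGtccatgtgcatcgg
Acaca, 3′ UTR, chr11:84214985-84215013, A15G: ccagactggcttgaActgagattgccata
Lpl, nonsynonymous, chr8:71425123-71425151, A15G: aagcttaagtggatAagcgactcctactt
Scd4, synonymous, chr19:44408619-44408647, A15G: caggatgaggagggAcccccgcccaagct

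The strain comparison asked whether the balance of B and D reads of each gene departed from the TMM centre of the libraries, not from equal numbers. For calls, more B or more D reads means relative to this centre, so a gene called for D can be near even in reads. Of the 56 lipid genes tested, 9 had more B reads and 2 had more D reads at an adjusted p under 0.05 (edgeR, Benjamini-Hochberg over all genes). Among all 7872 genes the corresponding shares were 12.9% with more B reads and 4.98% with more D reads. Together 19.6% of the lipid genes were called against 17.9% of all genes, which puts them near the background. The genes with more B reads were Agpat6, Acss2, Acaa1a, Fabp5, Abhd14b, Abhd11, Lpin1, Scd4 and Acss3, and those with more D reads were Acaca and Agpat9. Log2 ratios are D to B relative to the TMM centre of the libraries, with standard errors over 4 pools. This strain test did not pair the 2 alleles of a pool. Its standard errors and p-values therefore also take in differences in level between pools, and can exceed the spread of the ratio itself.

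When the pool was entered as a block, so that the 2 alleles of a pool were compared with each other, 10 lipid genes had more B reads and 9 more D reads. The shares over all genes were then 16.7% and 11.7%. The 9 genes called in this paired edgeR test but not in the unpaired one were Acadl and Acsm3 with more B reads, and Lpl, Apoe, Acads, Elovl5, Abhd4, Acacb and Agpat1 with more D reads, while Abhd11 lost its call (adjusted p = 0.051). Some did not depend on the pairing alone. Without the block, DESeq2 called Lpl and Apoe, and edgeR with 1 library size per pool called Acadl. With any 1 pool left out, the paired calls of Lpl, Apoe, Acadl and Acads stood, with adjusted p up to 0.0061, 9.3e-04, 0.015 and 0.030. Those of Acsm3, Elovl5, Acacb, Agpat1 and Abhd4 were lost without at least 1 pool, with adjusted p up to 0.062, 0.062, 0.098, 0.15 and 0.093, Abhd4 without any of the 4. Large ratios were uncommon: 3 of the 42 genes with at least 100 reads (7.14%) had a ratio of 2-fold or more, against 14.0% of 5070 genes.

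**Figure D1:**
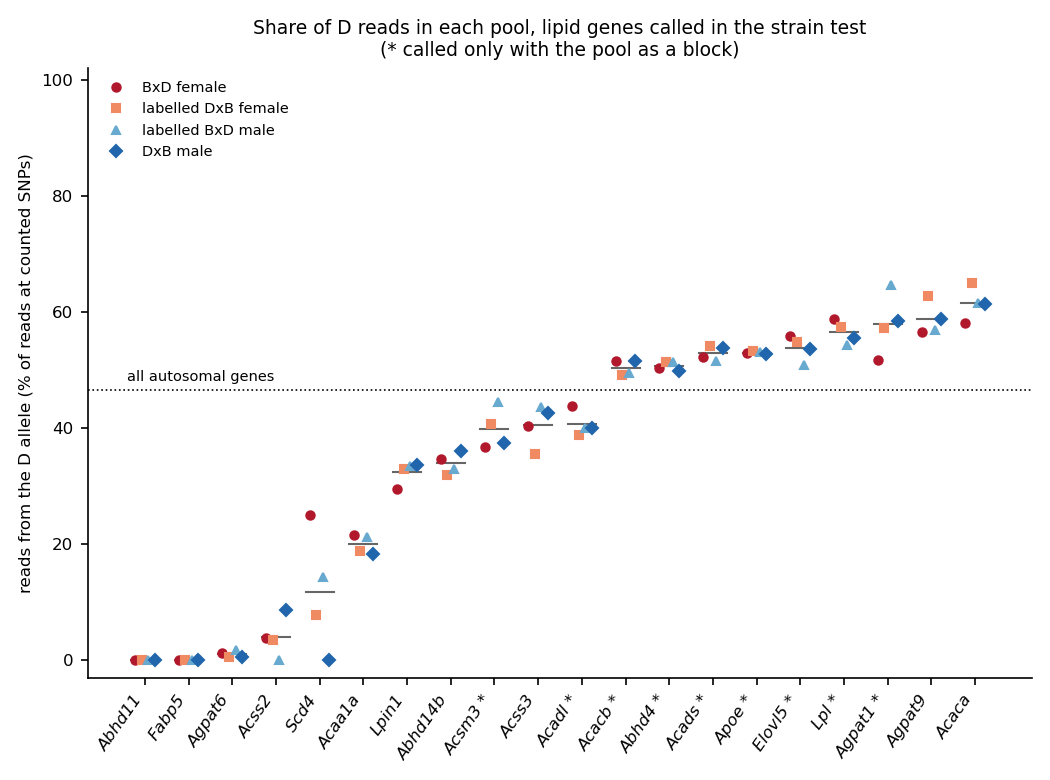
D reads as a percentage of the reads at counted exonic SNPs (vertical axis) in each of the 4 pools (symbols) for the 20 lipid genes called in either strain test, with the mean of the pools as a bar and the share over all genes as a dotted line. From Abhd11 to Acadl the shares of every pool lie below the dotted line, and from Acacb to Acaca every pool lies above it.

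SNPs with reads of 1 allele only were a large part of the B calls. Of the 291 SNPs with reads in these genes, 36 had under 1% of their reads from an allele, and all 10 of those with at least 10 reads had B reads. Without such SNPs, 5 lipid genes had more B reads and 1 had more D reads of 50 tested, against 5.68% and 3.83% of all genes. The genes called then were Agpat6, Acss2, Abhd14b, Lpin1, Acss3 and Acaca. Apart from Acaca these had no such SNP, so that nothing was removed from them, and the only SNP of Agpat6 lay just over the limit with 1.09% D reads. Another place in the reference matched the 29-base window of either allele exactly for 13 of these 36 SNPs and for 6 of the other 255. The reference carries the B base at all 291 SNPs. The paper sequenced DNA of D mice at some SNPs read from B only, in other genes, and found the B base at each. Whether D carries the listed base at the one-sided SNPs of the lipid genes was not tested.

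**Figure D2:**
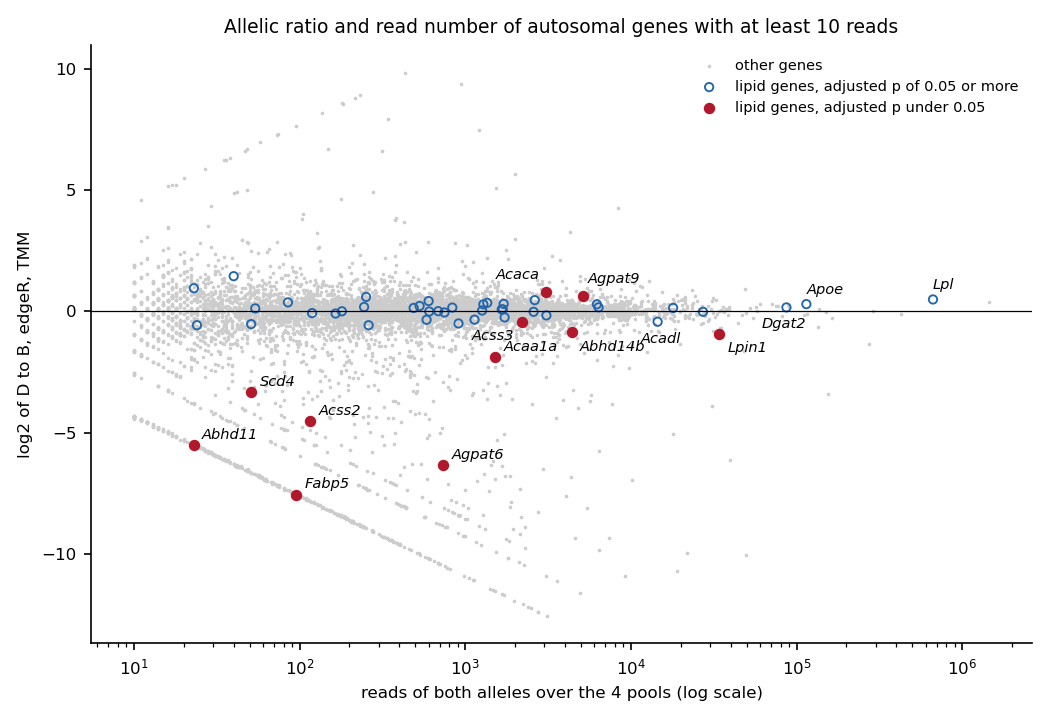
Log2 ratio of D to B reads (vertical axis) against the number of reads of both alleles (horizontal axis, log scale) for autosomal genes with at least 10 reads, with lipid genes as circles, filled where the adjusted p was under 0.05. The lipid genes with the most reads, Lpl, Apoe and Dgat2, lie within 1 log2 unit of 0, and the ratios beyond 3 log2 units come from Agpat6, Fabp5, Abhd11, Acss2 and Scd4.

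Among 11 tested genes of fatty acid synthesis and modification, 1 was called in each direction, and with the pool as a block 1 had more B and 3 had more D reads. Beside this and the small groups below, 12.9% of all genes had more B and 4.98% more D reads. With the pool as a block these shares were 16.7% and 11.7%. Acaca encodes acetyl-CoA carboxylase 1, which makes malonyl-CoA for fatty acid synthesis. Its counts were 373 B and 516 D reads in the BxD female pool, 307 and 568 in the pool labelled DxB female, 262 and 418 in the pool labelled BxD male, and 239 and 379 in the DxB male pool. The D allele was ahead in all 4 pools, with 58.0 to 64.9% of the reads, and the log2 ratio was 0.81 (SE 0.12, adjusted p = 5.1e-04).

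The SNPs of Acaca did not go one way. The 3′ UTR SNP at chr11:84215048-84215048 held 2087 of its reads and was near even, with 1025 B and 1062 D reads (50.9% D, 95% Wilson interval 48.7 to 53.0%). The 3′ UTR SNP at the middle of the second Acaca window had 21 B and 403 D reads, and the one at chr11:84214966-84214966 had 31 and 414. The other 12 SNPs had at most 35 reads each, and 10 of them had B reads only. For 11 of the 15 SNPs the window of an allele matched another place in the reference, where no gene is annotated, among them the D window of the near even SNP and the B window of the last of the 3 above. It was the only lipid gene with exons called in both directions, the last exon with more D reads (log2 ratio 0.81, adjusted p = 8.4e-04) and a coding exon with 10 B and 0 D reads (adjusted p = 0.036, and 0.13 with the pool as a block). Its introns were near even, with 133 B and 154 D reads.

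Acacb, the carboxylase isoform tied to mitochondrial fatty acid oxidation, had 8939 B and 9034 D reads. The D share was 51.6%, 49.0%, 49.4% and 51.5% in the BxD female pool, the pools labelled DxB female and BxD male, and the DxB male pool. It was called only with the pool as a block, where the log2 ratio was 0.15 (SE 0.037, adjusted p = 0.031). Its 20 SNPs had 45.5 to 53.8% D reads, and 19 of them lay above the 46.6% of all genes, which is itself below even. When SNPs of under 1% from an allele were left out of all genes, the blocked calls of Acacb, Abhd4 and Agpat1 were lost. Elovl5, an elongase of polyunsaturated fatty acids, had 624 B and 733 D reads with a D share of 50.8 to 55.9%, and a blocked log2 ratio of 0.35 (SE 0.070, adjusted p = 0.014).

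The desaturase genes of the Scd family share much of their sequence. Scd4 had 3 B and 1 D, 24 and 2, 6 and 1, and 14 and 0 reads in the BxD female pool, the pools labelled DxB female and BxD male, and the DxB male pool. Its log2 ratio of −3.33 (SE 0.83, adjusted p = 0.014) rested on 45 B reads at 1 synonymous SNP, whose B window matches a place in Scd1 and whose D window a place in Scd3. All 3 of its SNPs had reads of 1 allele only, and the call was lost without the pool labelled DxB female (adjusted p = 0.066) or the DxB male pool (0.094). Scd2 had 161 B and 100 D reads (log2 ratio −0.57, SE 0.26, adjusted p = 0.18), and 1 of its exons was called on 18 B and 0 D reads at a SNP whose D window is found in other Scd genes. Fads1, the delta-5 desaturase (801 B and 904 D reads, log2 ratio 0.31, SE 0.17, adjusted p = 0.28), and the elongase Elovl6 (64 and 55 reads, log2 ratio −0.07, SE 0.47, adjusted p = 0.96) did not pass the test.

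Acyl-CoA synthetases and thioesterases were thinly covered, with 4 synthetase genes tested and no thioesterase. Of the synthetases 2 had more B reads and none had more D reads, and 1 more, Acsm3, had more B reads only with the pool as a block. Acss2, the cytosolic enzyme that turns acetate into acetyl-CoA, had a single counted SNP, a nonsynonymous one. It had 25 B and 1 D, 28 and 1, 38 and 0, and 21 and 2 reads in the BxD female pool, the pools labelled DxB female and BxD male, and the DxB male pool. All pools were far to the B side (log2 ratio −4.52, SE 0.51, adjusted p = 3.9e-05), and with the other 2 exonic SNPs of the gene, which lie within the same few bases and were left out of the count, the reads were 398 B and 6 D. Whether D carries the listed bases at these SNPs was not tested.

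Acss3, a mitochondrial short-chain synthetase, had 389 B and 263 D, 345 and 190, 331 and 256, and 240 and 178 reads in the same order of pools. All 10 of its SNPs lay below the D share of all genes. The log2 ratio was −0.42 (SE 0.12, adjusted p = 0.030), and the call was lost without the BxD female pool (adjusted p = 0.091), the pool labelled DxB female (0.20) or the DxB male pool (0.087), though not with the pool as a block. The imbalance was not even along the transcript: the 4 SNPs of the 3′ UTR had 19.5% D reads and the 6 coding SNPs 42.3%, and the introns had 280 B and 246 D reads. Acsm3, a medium-chain synthetase, had 553 B and 357 D reads with a blocked log2 ratio of −0.49 (SE 0.094, adjusted p = 0.013). All its 13 exonic positions also lie in Exod1.

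Glycerolipid synthesis held the best-read call of the unblocked test, Lpin1. Of 11 genes tested 2 had more B reads and 1 had more D reads, or 2 and 2 with the pool as a block. Lpin1 encodes lipin 1, the phosphatidate phosphatase that makes diacylglycerol and also acts as a transcriptional coactivator. It had 5206 B and 2169 D reads in the BxD female pool, 5638 and 2760 in the pool labelled DxB female, 7046 and 3552 in the pool labelled BxD male, and 5177 and 2618 in the DxB male pool. The D share was 29.4 to 33.6% in all 4 pools, against 46.6% over all genes, and was lowest in the BxD female pool.

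The log2 ratio of Lpin1 was −0.92 (SE 0.20, adjusted p = 0.0057), and −0.94 (SE 0.053, adjusted p = 9.7e-05) with the pool as a block. All 21 of its SNPs lay on the B side of the share of all genes, from 7.02 to 40.7% D reads, and 5 of its exons were called. The 14 SNPs of the 3′ UTR had 32.4% D reads and the 6 coding SNPs 32.8%. The SNP of the window shown above had 548 B and 207 D, 551 and 268, 722 and 313, and 545 and 220 reads in the order of pools used above.

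Introns gave a readout of the same alleles at other SNPs. Lpin1 introns had 871 B and 413 D, 855 and 403, 665 and 385, and 564 and 251 reads in that order, so the D share was 30.8 to 36.7%. The intronic log2 ratio of −0.91 (SE 0.17, adjusted p = 1.1e-06) was close to the exonic one. Of the 65 intronic SNPs of Lpin1 with at least 20 reads, 60 lay below the intronic D share of all genes, 47.4%.

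Agpat6 encodes an acyltransferase of the endoplasmic reticulum that adds the first fatty acid to glycerol-3-phosphate. Its only exonic SNP, in the 3′ UTR, had 167 B and 2 D, 173 and 1, 217 and 4, and 169 and 1 reads in the BxD female pool, the pools labelled DxB female and BxD male, and the DxB male pool. The exonic log2 ratio was −6.31 (SE 0.30, adjusted p = 1.6e-08), the largest among lipid genes with reads of both alleles. Whether D carries the listed base at this SNP was not tested. Its introns did not share this: 74 B and 68 D, 67 and 55, 78 and 68, and 50 and 48 reads were counted there, and the intronic log2 ratio was −0.05 (SE 0.21, adjusted p = 0.93). The 29-base window of neither allele had a second place in the reference.

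Agpat9, another acyltransferase of glycerol-3-phosphate, had more D reads in each pool, with 468 B and 610 D, 471 and 795, 683 and 902, and 509 and 727 reads in the same order. Its log2 ratio was 0.64 (SE 0.20, adjusted p = 0.048), or adjusted p = 0.0020 with the pool as a block. Without the block the call was lost without the pool labelled BxD male (adjusted p = 0.074), the pool labelled DxB female (0.21) or the DxB male pool (0.15). All 6 SNPs, from 51.8 to 62.9% D reads, lay on the D side of the share of all genes. The introns, with 540 B and 697 D reads, gave a log2 ratio of 0.46 (SE 0.18, adjusted p = 0.073).

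Dgat2, one of the enzymes that makes triglyceride from diacylglycerol, had 42899 B and 43907 D reads over 10 exonic SNPs. The D share was 53.1%, 51.4%, 47.5% and 52.4% in the BxD female pool, the pools labelled DxB female and BxD male, and the DxB male pool, and the log2 ratio was 0.17 (SE 0.37, adjusted p = 0.83). With the pool as a block Dgat2 was called with more D reads by DESeq2 but not by edgeR. In the blocked edgeR test per exon, the 3′ UTR exon was not called (adjusted p = 0.45). The other exons with counted SNPs had more D reads (adjusted p = 0.0015 to 0.023). In the introns of Dgat2 the D share was higher in each pool, 62.4%, 61.1%, 53.9% and 59.4%. The intronic log2 ratio was 0.61 (SE 0.16, adjusted p = 0.0018), and 82 of the 105 intronic SNPs with at least 20 reads lay above the share of all genes. When SNPs with under 1% of their reads from an allele were left out, none of which had 20 reads or more, the log2 ratio was 0.57 (SE 0.21) and the call was lost (adjusted p = 0.12). Agpat2, whose loss causes congenital lipodystrophy, was near even with 842 B and 817 D reads at 1 SNP (log2 ratio 0.08, SE 0.34, adjusted p = 0.92). With the pool as a block its log2 ratio was 0.095 (SE 0.076, adjusted p = 0.43, edgeR).

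**Figure D3:**
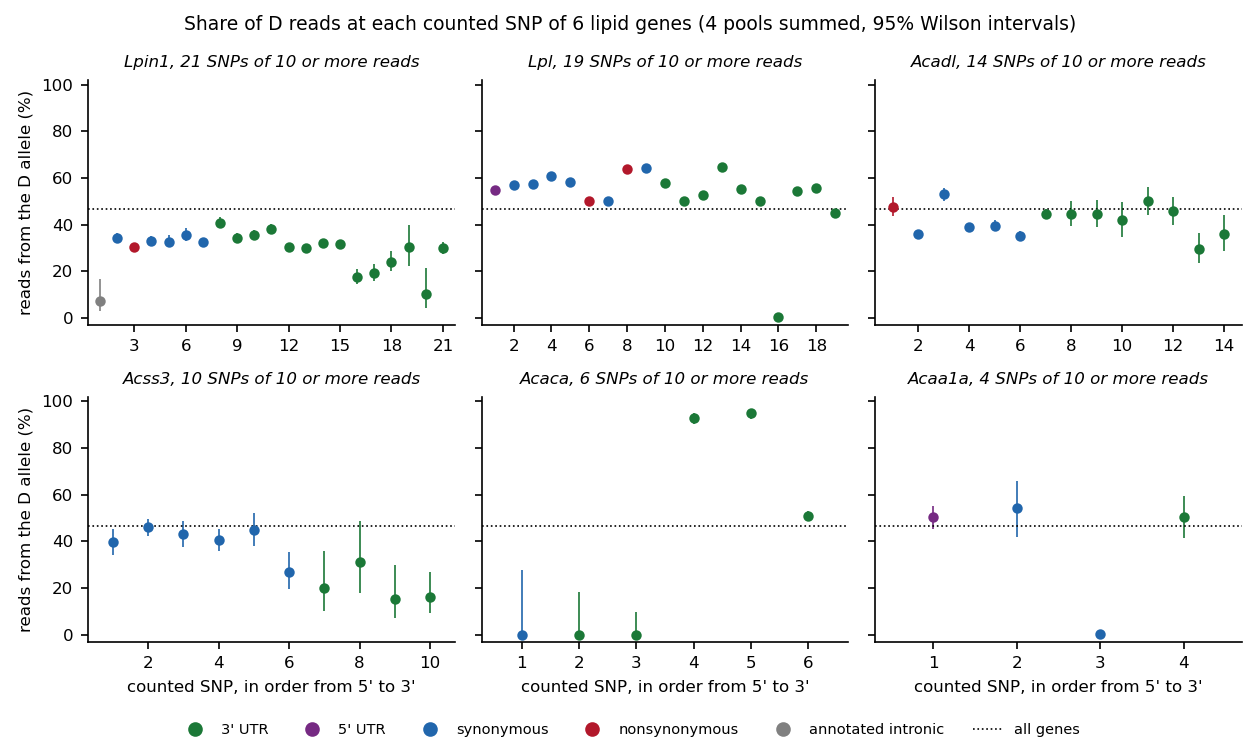
D reads as a percentage of all reads (vertical axis) at each counted SNP with at least 10 reads, in order along 6 lipid genes (horizontal axis), with the 4 pools summed, bars as 95% Wilson intervals and the share over all genes as a dotted line. The 21 SNPs of Lpin1 and the 10 of Acss3 lie below the line, Lpl has 1 SNP at 0.35% among SNPs of 45.0 to 64.5%, and Acaa1a has 1 at 0.11% among 3 of 50.2 to 54.1%.

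Lpl was by far the most read lipid gene. It had 66774 B and 94893 D reads in the BxD female pool, 76427 and 102928 in the pool labelled DxB female, 90467 and 107135 in the pool labelled BxD male, and 56384 and 70473 in the DxB male pool. The D allele was ahead in all 4 pools, with 54.2 to 58.7% of the reads. The log2 ratio was 0.49 (SE 0.16), which narrowly missed the threshold without the block (adjusted p = 0.055) and passed it with the pool as a block (0.50, SE 0.043, adjusted p = 5.5e-04) or without the pool labelled BxD male (0.54, adjusted p = 0.043). Without the block, Lpl was also called by DESeq2, and by edgeR when only genes with at least 10 counts were tested.

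Along Lpl, 17 of 19 SNPs lay on the D side of the share of all genes. The exon that holds the nonsynonymous SNP of the window above had 64.1% D reads (log2 ratio 0.92, SE 0.18, adjusted p = 9.6e-04) and an upstream exon with 2 synonymous SNPs had 60.0% (log2 ratio 0.68, SE 0.16, adjusted p = 0.0073). The exon between them, with 2 SNPs and 54333 B and 54595 D reads, was near even at 50.1% (log2 ratio 0.10, SE 0.16, adjusted p = 0.79, and 0.11 with the pool as a block), and the 3′ UTR exon had 52.8%. A 3′ UTR SNP was read almost only from the B allele, with 573 B and 2 D reads. Introns of Lpl held 2136 B and 1660 D reads, with a D share of 39.8 to 46.0% in the pools, and gave a log2 ratio of −0.25 (SE 0.17, adjusted p = 0.42), on the other side from the exons.

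The patatin-like lipases were less read. Pnpla7 and Pnpla8 did not pass the test, with D shares of 53.0% and 45.1% over the pools, and Pnpla5 had 2 exonic reads. Pnpla5 was called in the intronic test on 0 B and 9 D reads, all of the pool labelled BxD male, and that call was lost with the pool as a block (adjusted p = 0.27).

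In the abhydrolase family, whose members include monoacylglycerol and lysophospholipid hydrolases, 2 of 9 genes had more B reads and none had more D reads, or 1 and 1 with the pool as a block. Abhd14b had 741 B and 392 D, 882 and 414, 743 and 364, and 546 and 308 reads in the BxD female pool, the pools labelled DxB female and BxD male, and the DxB male pool. The D share was 31.9 to 36.1%, and the log2 ratio was −0.84 (SE 0.12, adjusted p = 3.1e-04). It was carried by the 3′ UTR exon, with 28.9% D reads over 4 SNPs (log2 ratio −1.20, SE 0.16, adjusted p = 1.8e-05), whereas the 3 coding SNPs had 46.7% and the introns 49.1%.

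Abhd11 had 8, 4, 5 and 6 B reads in the pools and no D read, at a single SNP annotated as intronic within an exon. Against a floor of 3 reads over the pools, B was at least 7.67-fold higher if D carries the listed base, which was not tested. Abhd4, which hydrolyses N-acyl phospholipids, was near even in exons (3141 B and 3237 D reads, blocked log2 ratio 0.17, SE 0.039, adjusted p = 0.024). Its introns had more D reads, 303 B and 431 D (log2 ratio 0.64, SE 0.19, adjusted p = 0.011). Abhd14a introns had more B reads (221 B and 129 D, log2 ratio −0.65, adjusted p = 0.049, and 0.14 with the pool as a block), and 1 exon of Abhd14a (487 and 281 reads) and 1 of the monoacylglycerol lipase gene Abhd6 (26 and 1 reads) were called with more B reads.

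Of 8 tested genes of uptake, binding and apolipoproteins, 1 was called without the block, with more B reads, and with the block 1 was called in each direction. Fabp5 encodes a fatty acid binding protein of adipocytes and macrophages. Its exonic SNPs had 24, 26, 18 and 27 B reads in the pools and no D read. If D carries the listed bases, which was not tested, B was at least 31.7-fold higher against the floor of 3 reads, or a D share of up to 3.16%. The B reads were 69 at the 5′ UTR SNP of the window above and 26 at a synonymous SNP. The window with the D base of the latter has a further place in Gm6166.

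Fabp5 introns held far more reads than its exonic SNPs, and both alleles were seen. The counts were 466 B and 268 D, 494 and 308, 258 and 152, and 292 and 228 reads in the BxD female pool, the pools labelled DxB female and BxD male, and the DxB male pool. The D share was 36.5 to 43.8%, the log2 ratio −0.52 (SE 0.17, adjusted p = 0.023), and 18 of 22 SNPs with at least 20 reads lay below the share of all genes. Without SNPs of under 1% from an allele, of which 1 had at least 20 reads, the log2 ratio was −0.54 (SE 0.20) and the call was lost (adjusted p = 0.13).

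Apoe, which encodes apolipoprotein E, a ligand of lipoprotein receptors, was the second most read lipid gene, with a single nonsynonymous SNP. It had 14921 B and 16706 D, 15553 and 17754, 13229 and 14916, and 10106 and 11291 reads in the order of pools above. The D share varied by less than 1 percentage point, from 52.8 to 53.3%. The log2 ratio of 0.30 had an SE of 0.12 without the block (adjusted p = 0.13) and 0.014 with it (adjusted p = 4.4e-05). DESeq2 called Apoe without the block.

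Of 9 tested genes of fatty acid oxidation, 1 was called, with more B reads, and with the pool as a block 2 had more B and 1 had more D reads. Acadl encodes long-chain acyl-CoA dehydrogenase, which starts a round of mitochondrial oxidation. It had 2086 B and 1623 D, 1993 and 1262, 2807 and 1866, and 1708 and 1141 reads in the BxD female pool, the pools labelled DxB female and BxD male, and the DxB male pool. The D share was 38.8 to 43.8%, and the log2 ratio was −0.42 (SE 0.16, adjusted p = 0.11) without the block and −0.42 (SE 0.052, adjusted p = 0.0025) with it. Of its 14 SNPs 11 lay on the B side, and 3 of its coding exons were called.

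The introns of Acadl were further to the B side than its exons. They had 394 B and 181 D, 316 and 124, 318 and 122, and 217 and 76 reads in the same order, a D share of 25.9 to 31.5%. The log2 ratio was −1.21 (SE 0.18, adjusted p = 2.3e-10), and 21 of 23 intronic SNPs with at least 20 reads lay below the share of all genes. The difference between exons and introns was not tested.

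Acaa1a encodes a peroxisomal thiolase, the last step of peroxisomal oxidation. It had 254 B and 70 D, 269 and 62, 361 and 97, and 330 and 74 reads in the same order, and a log2 ratio of −1.89 (SE 0.23, adjusted p = 6.0e-05). A synonymous SNP with 920 B and 1 D reads made up 60.7% of these, and the window with its D base matches a place in the paralogue Acaa1b. The other 3 SNPs were even, with 294 B and 302 D reads. Without the first SNP the log2 ratio was 0.12 (SE 0.27, adjusted p = 0.90).

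Introns of Acaa1a had 202 B and 73 D, 163 and 83, 175 and 103, and 113 and 63 reads in that order. The intronic log2 ratio was −0.87 (SE 0.18, adjusted p = 5.3e-05, and 0.0012 without SNPs read from 1 allele only), and 10 of 13 intronic SNPs with at least 20 reads lay below the share of all genes. The difference between the 3 even exonic SNPs and the introns was not tested.

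Cpt1a, the carnitine palmitoyltransferase that controls entry into mitochondria (1361 B and 1224 D reads, log2 ratio −0.01, SE 0.14, adjusted p = 0.97), and Acadvl, the very long-chain dehydrogenase (416 and 419 reads, log2 ratio 0.16, SE 0.20, adjusted p = 0.67), did not pass the test. The single position of Acadvl also lies in Dvl2.

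The 6 remaining genes with at least 1000 reads (Acads, Agpat3, Agpat4, Apoa2, Pnpla7 and Pnpla8) did not pass the unblocked test. Their D shares over the 4 pools ranged from 45.1 to 55.6%. Acads, the short-chain dehydrogenase, and Agpat1, which acylates lysophosphatidate, were the remaining genes called only with the block, with 52.8% and 57.9% D reads.

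Across introns, 5 of 52 lipid genes had more B reads (Lpin1, Acadl, Acaa1a, Fabp5 and Abhd14a) and 3 had more D reads (Dgat2, Abhd4 and Pnpla5), against 7.23% and 4.26% of 9409 genes. Lpin1, Acadl, Acaa1a and Abhd4 were also called by DESeq2, with at least 10 counts, and without SNPs read from 1 allele only. With any 1 pool left out, Lpin1, Acadl, Acaa1a and Dgat2 kept their calls, with adjusted p up to 2.1e-04, 7.3e-07, 0.0042 and 0.026. Abhd4 lost it without the pool labelled BxD male (adjusted p = 0.080) or the DxB male pool (0.056), and Fabp5 lost it without any pool but the DxB male one (0.083 to 0.13). Abhd14a kept it only without the pool labelled BxD male (0.0058), and Pnpla5, whose 9 intronic reads come from that same pool alone, only without the DxB male pool (0.046). Of the 35 genes with at least 20 reads in both exons and introns, 21 had ratios on the same side in both. The exonic and intronic log2 ratios of these 35 were weakly correlated (Pearson r = 0.193, Spearman rho = 0.327). The counts carry no strand, so reads of overlapping genes on either strand cannot be told apart.

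**Figure D4:**
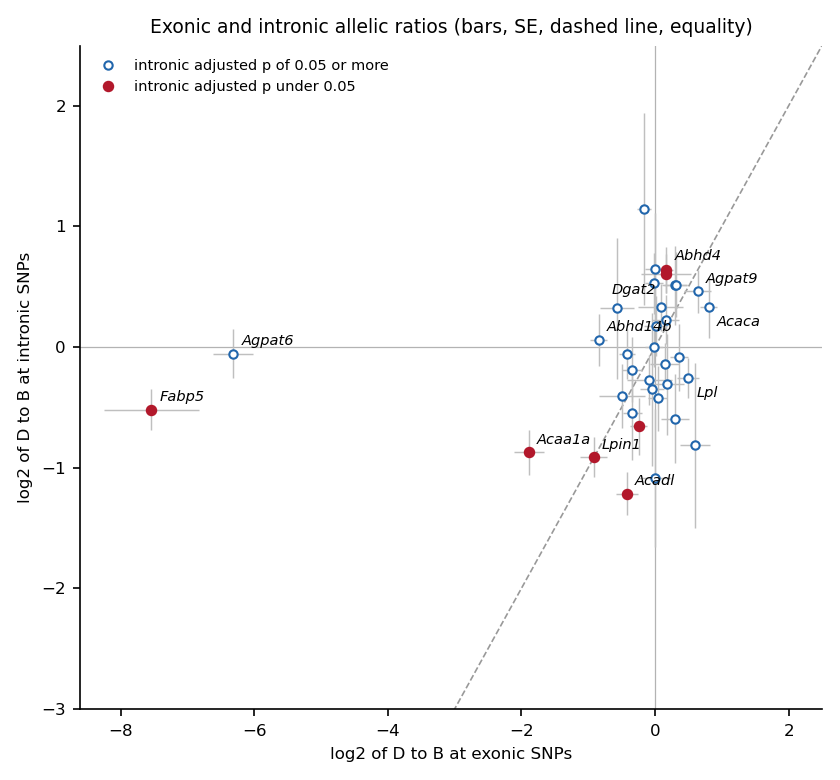
Log2 ratio of D to B at intronic SNPs (vertical axis) against that at exonic SNPs (horizontal axis) for 35 lipid genes with at least 20 reads in both, with standard errors as bars and filled points where the intronic adjusted p was under 0.05. Lpin1 lies on the line of equality, Acadl below it, and Agpat6 and Fabp5 far to the left, where the value of Fabp5, with no exonic D read, is a fitted one.

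Per exon, 21 of 162 lipid gene exons had more B reads and 4 more D reads, against 8.76% and 3.69% of 21274 exons, and with the pool as a block 25 and 21, against 11.6% and 7.62% of the same exons. The called exons lay in 16 genes, of which 14 had exons with more B reads and 3 had exons with more D reads, Acaca being in both groups.

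Of 18 genes with matching symbols but only intronic SNPs with reads, 3 were called in the intronic test, all with more B reads. Among all 9409 genes of that test, 7.23% had more B and 4.26% more D reads. Scd1, the main stearoyl-CoA desaturase of adipose tissue, had 604 B and 171 D reads (log2 ratio −1.72, SE 0.20, adjusted p = 3.0e-16), but without SNPs read from 1 allele only the log2 ratio was 0.50 (adjusted p = 0.67). Fads3 had 76 B and 30 D, 60 and 24, 82 and 19, and 51 and 16 reads in the pools (log2 ratio −1.49, SE 0.24, adjusted p = 2.9e-08). Of these, 166 B and 2 D reads came from 1 SNP at chr19:10132166-10132166, and the other 10 SNPs had 103 B and 87 D reads (45.8% D). The peroxisomal oxidase gene Acox3 had 95 B and 40 D reads (log2 ratio −1.14, SE 0.35, adjusted p = 0.015). Its SNP at chr5:35949161-35949161 was near even, with 31 B and 33 D reads, and the other 2 SNPs had 64 B and 7 D reads.

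A list of 68 further lipid genes outside the symbol rule, chosen with earlier results of these data known, had counted reads for 26. Of these 26, 4 had more B reads and none had more D reads, against 12.9% and 4.98% of all genes. With the pool as a block 6 had more B and 8 more D reads, against 16.7% and 11.7% of all genes. Dci, an enoyl-CoA isomerase of mitochondrial oxidation, had 2797 B and 591 D reads (log2 ratio −2.11, SE 0.18, adjusted p = 3.3e-06). Slc25a20, the carnitine-acylcarnitine carrier, had 1195 and 604 (log2 ratio −0.86, SE 0.17, adjusted p = 0.0034). The remaining calls, Mlycd with 417 B and 1 D reads and Peci with 25 and 0, rested on SNPs read from 1 allele. Thrsp, a lipogenic gene of adipose tissue, had 14627 B and 5258 D reads and was called only with the block (log2 ratio −1.44, SE 0.12, adjusted p = 4.4e-04).

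The parent of origin comparison asked whether the maternal and the paternal allele differed. By the labels 0% of genes were called and by the file names 0.0635%, and no lipid gene was called under either identity (edgeR). At an unadjusted p under 0.05 there were 36 genes by label and 38 by file name, with no lipid gene among them. DESeq2 called 0 and 7 genes, none of them a lipid gene.

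The comparison of the strain ratio between sexes called 0.102% of genes by label and 0% by file name, and no lipid gene in either (edgeR). An unadjusted p under 0.05 was reached by 65 and 108 genes, again without a lipid gene, and DESeq2 called 8 and 0 genes. With the pool as a block 2 of 56 lipid genes had an unadjusted p under 0.05 under each identity, beside 236 of 7872 genes by label and 283 by file name, and none was called.

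The summed level of both alleles, as TMM-scaled CPM of the counted reads, was then compared between female and male pools. In these bulk samples fewer cells of a type and less RNA per cell cannot be told apart. No lipid gene was called by edgeR under either identity, against 0% of all genes by label and 2.77% by file name. At an unadjusted p under 0.05 there were 15 of 56 lipid genes beside 289 of 7872 genes by label, a larger share than of all genes. By file name there were 6 of 56 beside 924 of 7872, a similar share. DESeq2 called 4 and 136 genes with no lipid gene among them.

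With 2 pools a group, single pools decided this count under the file names, where a lone pool is taken to vary like the other group. Without the pool labelled BxD male 5 lipid genes were called (Acsm3, Agpat2, Agpat9, Dgat2 and Scd4), without the BxD female pool 8 (Acacb, Acsm1, Agpat2, Apoa1, Apoa2, Apoc3, Fabp1 and Fabp2), without the DxB male pool 2 (Apoa2 and Fabp1), and without the pool labelled DxB female none. In the same order these fits called 8.16%, 6.08%, 1.36% and 0.762% of all genes, so that the 5 of the first were near its background.

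The levels themselves showed which pools stood apart. Dgat2 had a level of 2501 in the BxD female pool, 5258 in the pool labelled DxB female, 7292 in the pool labelled BxD male and 7662 in the DxB male pool, lowest in the BxD female pool. Acsm3 ran the other way, with 85.7, 63.3, 38.2 and 33.2 in that order. Lpl varied little, with 35324, 44001, 49297 and 39358, as did Apoe, with 6638 to 8171.

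A set of apolipoprotein and binding protein genes best known from liver and intestine was highest in the pool labelled BxD male. Apoa2 had 62.9, 7.61, 511 and 79.4, Apoc3 14.4, 11.3, 92.3 and 14.9, and Fabp1 12.2, 1.96, 93.8 and 14.9 in the order of pools above. Apoa1 had 23.6, 8.34, 81.6 and 41.0. This pool was also the one with the Ucp1 reads given above and with 111 reads of the brown adipocyte gene Cidea against 9 to 16 in the others, and the part of such cells in these levels was not tested. Of the 42 lipid genes with at least 100 reads, 19 (45.2%) were highest in this pool, against 26.4% of all genes with as many reads. The adipocyte genes Lep and Cidec were highest there too, at 2695 against 1019 to 1586 and 6760 against 3063 to 5111, and the macrophage gene Cd68 was lowest, at 240.0 against 397 to 512, and the part of cell composition in this was not tested. The level differed over 2 times between the highest and the lowest pool for 9 of the 42 (21.4%), against 13.9% of all genes with as many reads.

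**Figure D5:**
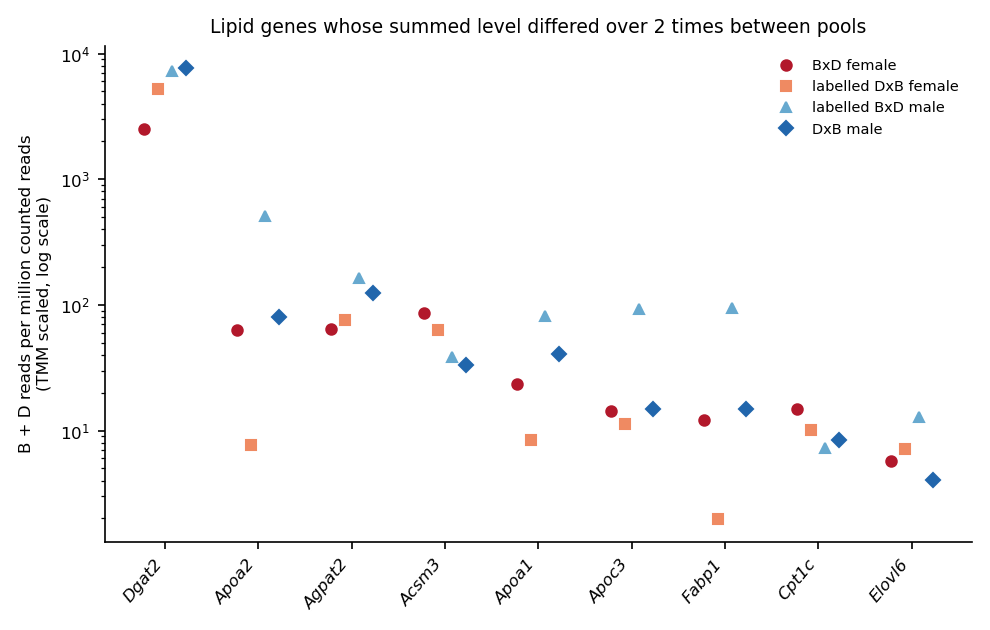
Level of both alleles in TMM-scaled CPM of the counted reads (vertical axis, log scale) in each of the 4 pools (symbols) for the 9 lipid genes with at least 100 reads whose level differed over 2 times between pools. Apoa2, Apoa1, Apoc3 and Fabp1 are highest in the pool labelled BxD male, and Dgat2 is lowest in the BxD female pool.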

How the data were processed

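RNA of 4 pools of F1 gonadal fat was sequenced as 50 bp read pairs. Per the methods, mates were aligned as single reads to mm9 with D variants masked (a supplement is ambiguous on the masking), with up to 3 mismatches, by mrsFAST and then TopHat (version 1 in the submitters' processing notes, which also list CASAVA), and unique reads were counted per allele at known SNPs. The deposited files hold these raw counts, made by the authors without normalization. Removal of PCR copies is not described, so intervals cover counting error only.

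Exonic SNPs of autosomes 1 to 19 were summed per gene, counting each position once, for the first gene listed, and only the first SNP of those within 18 bp in an exon. This reading of the methods was chosen after the files were seen, since it gave the gene counts of the study's own table when pools were taken by file name. Intronic SNPs were summed likewise. The 8 allele libraries (B and D of 4 pools) were tested with edgeR 4.0.16 (R 4.3.3, TMM, quasi-likelihood, Benjamini-Hochberg, threshold 0.05), with DESeq2 1.42.0 as an alternative. The edgeR tests of strain and of level by sex were tried on simulated data first, and DESeq2 was not. Standard errors are the absolute log2 ratio over the square root of F. Groups followed the labels, with the file names as the alternative.

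The alleles of a pool come from the same animals, and their deviations from the strain means were correlated in every pool (r = 0.641, 0.603, 0.659 and 0.532 over 4576 genes), so paired values with the pool as a replicate block are given where a call changes. Genes were named if called in the strain test, if in a fixed core list with at least 10 reads, or if called in another test. Members, lists and tests were chosen with earlier results of these data known. Windows of 29 bases were searched in NCBIM37 for exact second places. The result of 1 gene is not reported here.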

Additional observations from a re-analysis of the deposited data

Results flagged for a closer look

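The log2 ratio of D to B reads of Lpin1 in the BxD female pool lay apart from the other 3 pools. The gap to the nearest pool was 0.832 of the whole range, just over Dixon's critical value for 4 samples. The D share of Lpin1 was 29.4% in this pool and 32.9%, 33.5% and 33.6% in the pools labelled DxB female and BxD male and in the DxB male pool, so all 4 were on the B side. Ratios of 21 genes and levels of 24 genes were examined in this way, with 1 and 0 set apart, and chance sets apart about 1 in 20.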

How the results depend on the processing

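Of 494 values of the named genes under other settings, 457 kept their side of the threshold, 13 lost the call, 22 gained it and 2 changed sign. Changes of sign were counted only for genes called under the main setting. Among genes not called, log2 ratios also crossed 0 in Abhd14a (−0.53 to 0.031), Agpat2 (−0.041 to 0.13), Cpt1a (−0.14 to 0.038) and Elovl6 (−0.26 to 0.25). Both counted changes of sign were in Acaa1a, at 0.12 without SNPs of under 1% from an allele and 0.14 when the replicate block was added to that, and they come from dropping 1 SNP. Agpat9 lost its call in 7 of 18 settings and Acss3 in 3. Lipid genes with more B reads were 5 without those SNPs and 7 to 9 with a pool left out. Lipid genes with more D reads were 1 with 1 library size per pool (which moved the median of all genes by −0.147), 4 with DESeq2, 1 with X genes included, 9 with the replicate block, 7 with the block in DESeq2, 6 with the block and without those SNPs, 1 without them, and 1 to 2 with a pool left out. With a pool left out of the blocked test 9 to 11 had more B and 5 to 9 more D reads. Intronic calls with more B reads were 3 with DESeq2, 3 with at least 10 counts, 3 without those SNPs and 3 to 4 with a pool left out, and those with more D reads were 1, 1, 1 and 1 to 2. Exons with more B reads were 12 without those SNPs and 15 to 20 with a pool left out, and exons with more D reads were 21 with the replicate block and 4 to 6 with a pool left out. Levels by sex under the file names gave 0 to 8 calls with a pool left out. Apart from Acaa1a, the causes of these changes were not tested. Depth limits the genes under 100 reads, and for 15 lipid genes, Agpat6, Acss2 and Apoe among them, the ratio rests on 1 counted SNP.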
